A study of Zea mays with 6 samples.

Results

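In the maturing zone of the maize leaf, transcript levels were set gene by gene against the levels of H3K9ac, histone H3 acetylated at lysine 9, and of H3K4me3, histone H3 carrying a trimethyl group at lysine 4. The members were the 39313 features annotated protein_coding among 110149 features of every type. Of these genes, 21234 had at least 1 region of both marks, 2135 had H3K9ac only, 1773 had H3K4me3 only, and 14171 had no region of either mark. Where a gene had several regions of a mark, the region with the highest signal stood for it.

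Plants of cultivar B73 stood in growth chambers, where days of 16 h were kept at 25 °C and nights of 8 h at 20 °C. The light intensity was 130 µmol m-2 s-1, and the third leaf was taken 13 to 14 days after sowing. The maturing zone was a piece 4 cm long, cut from the middle of the lit part of the blade. Each RNA replicate pooled leaf tissue of 6 plants, and each chromatin replicate pooled 10 plants. The study also sampled the leaf base, which was not used here. Transcript levels came from 2 RNA libraries, A with 50657759 and B with 18325106 exon reads, and are in RPKM, reads scaled by exon length and library size. The level of a mark is the authors' average of normalized reads over a region, called signal here, so no replicate spread or depth stands beside it, and it is per region and not per length. A listed region may have been called in the maturing zone or in the base. The lowest signals next to protein-coding genes were 2.69 for H3K9ac and 0.73 for H3K4me3. A gene counted with a mark therefore need not have a region called in the maturing zone. Genes are not replicates of one another, so every relation across genes is a description without a p-value.

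Maize is a C4 plant: mesophyll cells fix carbon dioxide into C4 acids, which bundle sheath cells break down to feed the Calvin cycle. H3K9ac is set by histone acetyltransferases and removed by deacetylases, and H3K4me3 is written by SET-domain methyltransferases. In plants both marks are known from the start of transcribed genes, downstream of the transcription start site.

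The markers matched a photosynthetic blade. PEPC (GRMZM2G083841), the enzyme that fixes carbon in the mesophyll, stood at 2206 RPKM in library A and 2299 in library B. NADP-ME (GRMZM2G085019), the decarboxylase of the bundle sheath, stood at 6067 RPKM in A and 3671 in B. The sucrose transporter gene sut1 of the veins had 298 RPKM in A and 459 in B, and GL1 of the epidermis had 35.0 RPKM in A and 88.5 in B. Another epidermal marker, LTP3, had only 1.22 RPKM in A and 8.18 in B. The markers chosen for meristems and dividing cells were near 0. KN1 had 0.09 and 0.20 RPKM, MCM6 had 0.01 and 0.04, and MCM7 had 0.04 and 0.02, in A and B. Other genes of these kinds were not all near 0. At 1 RPKM or more were 7 of 22 cell cycle and DNA replication genes and 4 of 24 KNOX and meristem genes. Of the 15 markers of all cell types, 12 (80%) were at a mean of 1 RPKM or more, against 41.5% of all protein-coding genes. In a whole piece of leaf, fewer cells of a type and less RNA or less mark per cell cannot be told apart.

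Genes that carried both marks held most of the transcripts. Their median level was 2.83 RPKM in library A and 2.01 in library B, against 0 in both libraries for genes with no region. The 21234 genes with both marks made up 54.0% of protein-coding genes and 87.5% of the summed RPKM in A and 88.5% in B. At a mean of 1 RPKM or more, which served as the threshold for a transcribed gene, 65.0% of the genes with both marks were counted, against 12.01% of the genes with no region and 41.5% of all protein-coding genes. The share for genes with both marks was 64.6% in A and 62.1% in B, so the gap to the genes with no region, at 12.4% in A and 9.84% in B, was far wider than the difference between libraries. Of the genes with no region, 55.2% were listed at 0 RPKM in both libraries, and of the genes with both marks 5.001%. The classes also differed in annotation. A gene of the RefSeq annotation matched 67.9% of the genes with both marks and 20.5% of those with no region. The match was 37.7% for H3K9ac only and 38.9% for H3K4me3 only. What this difference does to the contrast was not tested.

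A single mark went with low transcript levels, and the marks were not equal in this. Of the genes with H3K9ac only, 29.7% reached 1 RPKM (30.1% in A, 26.2% in B), with a median of 0.10 RPKM. Of the genes with H3K4me3 only, 11.4% did (9.53% in A, 11.3% in B), with a median of 0.025 RPKM, which is about the share among genes with no region. The single marks were also weak: the median signal was 94.1 for H3K9ac alone, against 360 in genes with both marks, and 65.7 for H3K4me3 alone, against 256 in genes with both marks. H3K9ac regions were present on 59.4% of all protein-coding genes and H3K4me3 regions on 58.5%.

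The share of transcribed genes climbed with the signal of each mark, and for H3K9ac it levelled off. Among the 23369 genes with an H3K9ac region, cut into 10 deciles by signal, the share at 1 RPKM or more was 10.0% in the lowest decile, 51.7% in the fourth and 88.7% in the eighth, and it stayed at 89.0% in the ninth and 88.6% in the highest decile. The lowest decile of H3K9ac signal, up to 68.8, lay close to the genes with no H3K9ac region, at 11.9%. Their order turned between the libraries: the lowest decile had 9.37% in A and 10.3% in B, against 12.1% in A and 10.0% in B for genes with no region. For H3K4me3, over 23007 genes, the share was 15.1% in the lowest decile, 56.0% in the fourth, 81.4% in the eighth and 87.2% in the highest decile. The H3K4me3 curve had no flat top of that kind.

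**Figure D1:**
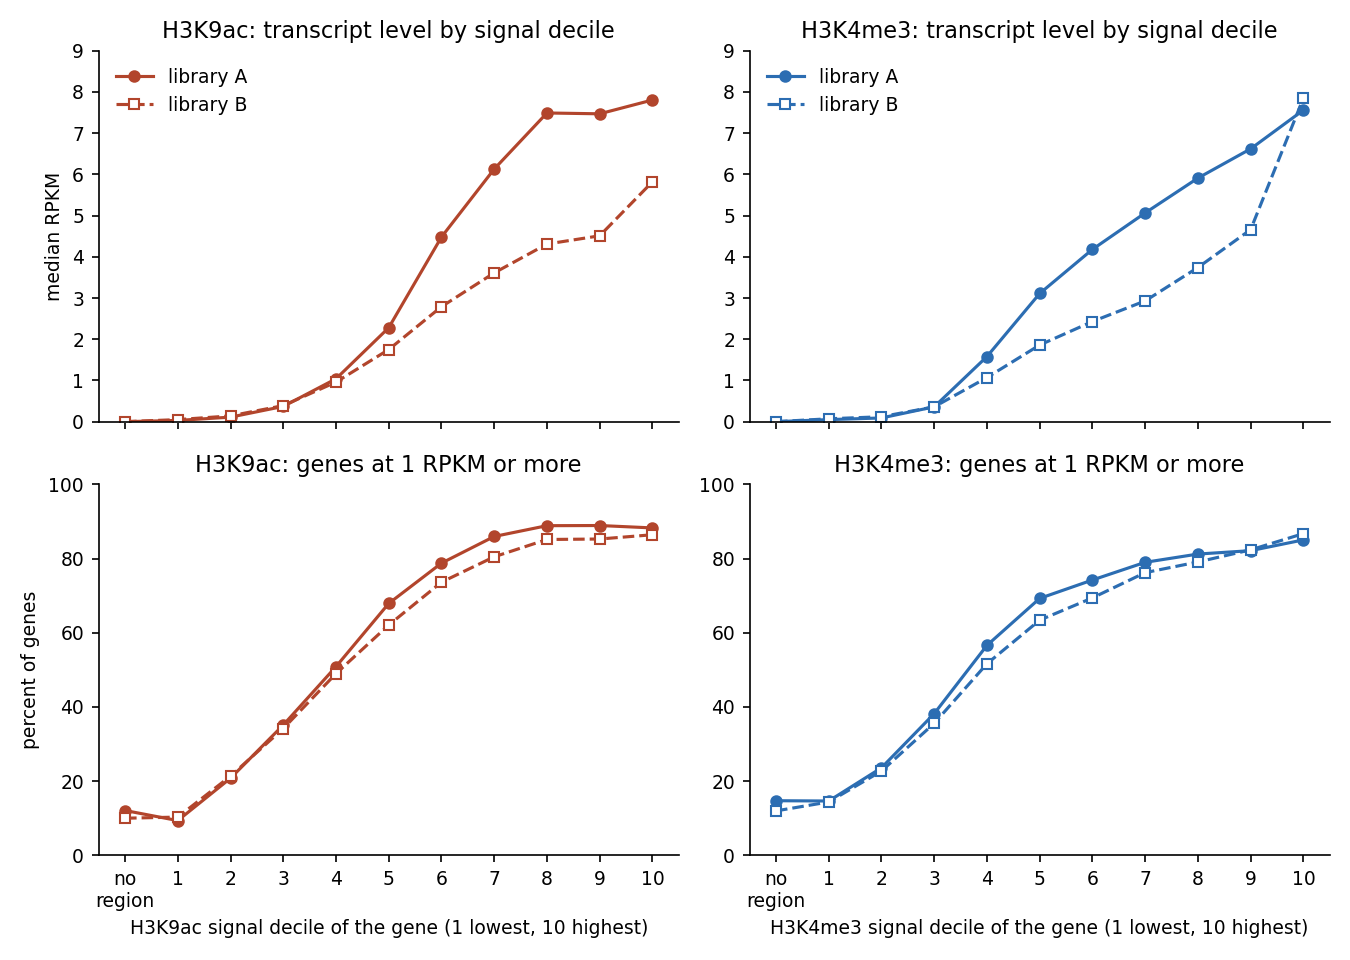
Transcript level by mark signal in the maturing zone: the upper panels give the median RPKM and the lower panels the percent of genes at 1 RPKM or more, for genes with no region and for each decile of H3K9ac (left) and H3K4me3 (right) signal, with library A as filled circles and library B as open squares. In the 3 highest H3K9ac deciles the share lies between 88.3% and 88.9% in A and between 85.2% and 86.4% in B, while the H3K4me3 median in B climbs to 7.85 RPKM in the highest decile.

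The median levels in A and B differed little in the 3 lowest deciles of each mark and in the highest H3K4me3 decile, and more in between. The median in the eighth H3K9ac decile was 7.49 RPKM in A and 4.31 in B, and in the highest H3K4me3 decile it was 7.56 RPKM in A and 7.85 in B. Across the genes with a region, Spearman's rho between H3K9ac signal and mean RPKM was 0.58 (0.59 with library A, 0.55 with B). For H3K4me3 rho was 0.53 (0.52 with A, 0.53 with B). The libraries themselves correlated at rho 0.94 over all protein-coding genes, and each mark has a single set of values, so the values for A and B share their mark measurements.

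When genes with no region were entered at a signal of 0, rho over all 39313 genes was 0.70 for H3K9ac and 0.66 for H3K4me3. Read as a sorting of genes at 1 RPKM or more from the rest, the area under the curve, the chance that a transcribed gene has the higher signal of a random pair, was 0.86 for H3K9ac (0.86 in A and in B) and 0.83 for H3K4me3 (0.82 in A, 0.83 in B). H3K9ac was the higher of the 2 marks in both libraries.

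Over all genes with both marks, H3K4me3 added little to H3K9ac, while H3K9ac added more to H3K4me3. In the 21234 genes with both, their signals correlated at rho 0.62, and a least-squares fit of log2(RPKM + 1) on log2 signal gave an R2 of 0.25 for H3K9ac, 0.19 for H3K4me3 and 0.26 for both. With library A the values were 0.26, 0.18 and 0.27, and with library B 0.21, 0.19 and 0.23, in the same order. With the other mark held, the rank correlation with mean RPKM was 0.37 for H3K9ac (0.40 in A, 0.32 in B) and 0.20 for H3K4me3 (0.17 in A, 0.24 in B). Over the 13792 of these genes at 1 RPKM or more the order was reversed, at 0.14 for H3K9ac and 0.18 for H3K4me3.

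A grid of quintiles sets the marks side by side. Genes in the lowest quintile of H3K9ac had low medians, from 0.0875 RPKM in the lowest H3K4me3 quintile to 0.208 in the highest. Their share at 1 RPKM or more was 14.9% in the lowest and 26.1% in the highest H3K4me3 quintile. Even the 46 of them in the highest H3K4me3 quintile had only 0.195 RPKM in A and 0.23 in B. The reverse corner was different: the 98 genes with the lowest quintile of H3K4me3 and the highest of H3K9ac had a median of 4.36 RPKM in A and 1.93 in B. Within the highest H3K9ac quintile the share of genes at 1 RPKM or more was 70.4% in the lowest H3K4me3 quintile and 89.6% in the highest. In the second H3K9ac quintile the median climbed from 0.495 RPKM in the lowest H3K4me3 quintile to 1.805 in the highest. In the third it climbed from 1.55 to 6.13 RPKM.

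**Figure D2:**
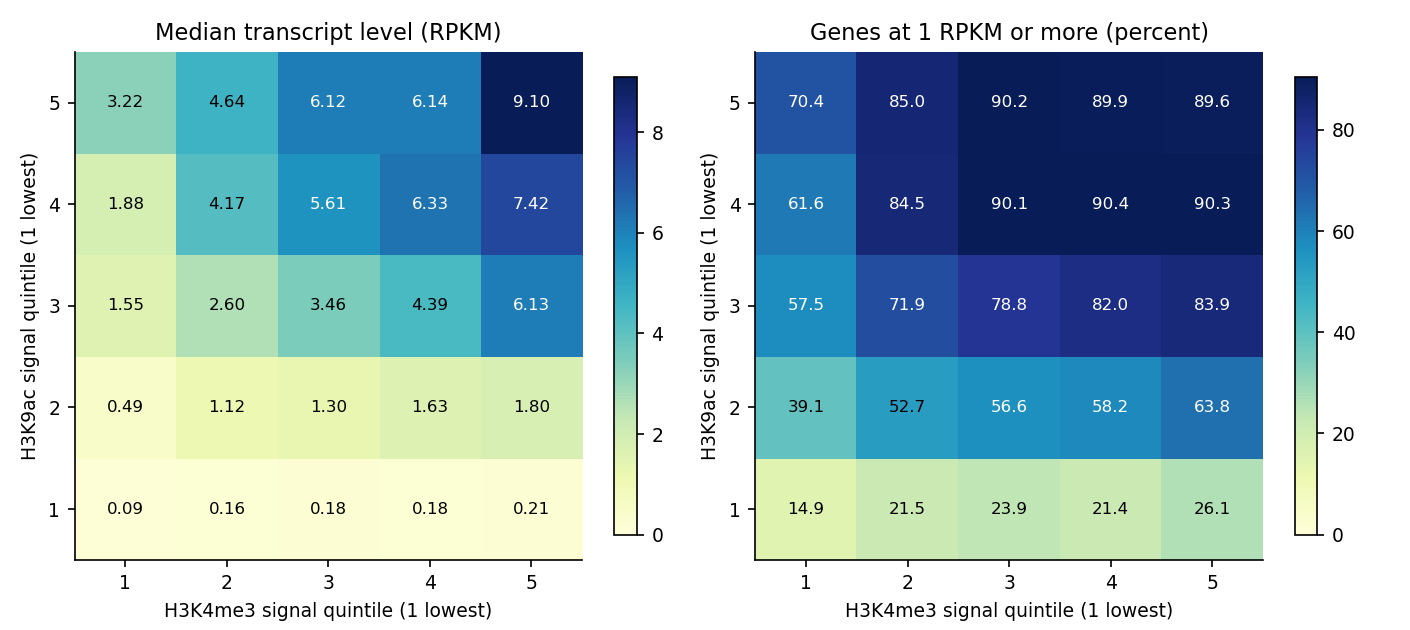
Genes with both marks, placed by quintiles of H3K9ac signal (vertical, 1 lowest) and H3K4me3 signal (horizontal, 1 lowest); the left panel gives the median of the mean RPKM in each cell and the right panel the percent of genes at 1 RPKM or more. The bottom row stays at or below 0.208 RPKM across all H3K4me3 quintiles, and cells hold between 46 and 2700 genes.

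The rank correlation was lower over sets of genes kept by a minimum RPKM. Such a minimum narrows the range of levels, which lowers rho in itself. Among genes with both marks, rho for H3K9ac was 0.55 over all 21234, 0.23 over the 13792 at 1 RPKM or more, 0.04 over the 4861 at 10 RPKM or more and 0.07 over the 582 at 100 RPKM or more. For H3K4me3 the values were 0.48, 0.25, 0.18 and -0.02 over the same sets. At 1 RPKM or more the order of the marks depended on the library: with A, H3K9ac had 0.25 and H3K4me3 0.20, and with B, H3K9ac had 0.18 and H3K4me3 0.29. At 10 RPKM or more the H3K4me3 value was 0.07 with A and 0.26 with B, so the mean of 0.18 rested mostly on library B. At 100 RPKM or more it was -0.12 with A and 0.06 with B.

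**Figure D3:**
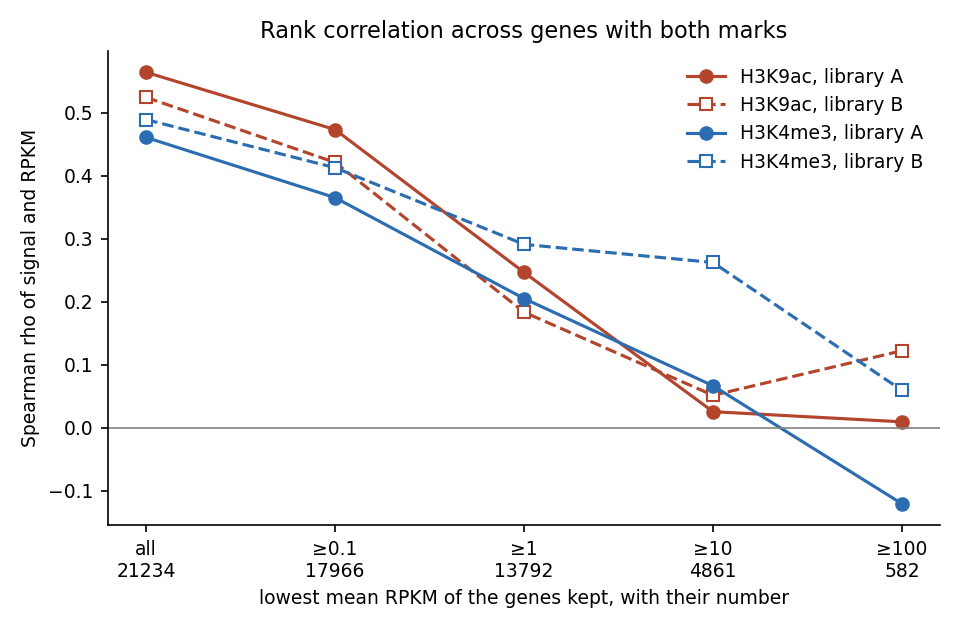
Spearman's rho between mark signal and RPKM across genes with both marks, for all of them and for those at or above each mean RPKM (number of genes under each), with H3K9ac in red and H3K4me3 in blue, library A as filled circles and library B as open squares. The values fall to between -0.12 and 0.12 at 100 RPKM or more, and H3K4me3 differs most between libraries at 10 RPKM or more, 0.07 in A and 0.26 in B.

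The difference between the libraries moved with the marks. Over the 13792 genes with both marks at 1 RPKM or more, the median of log2(RPKM + 1) in B minus that in A was -0.47, and 32.9% of the genes were higher in B. In the highest H3K4me3 decile of these genes the median difference was 0.39 and 65.0% were higher in B, against -0.65 and 23.3% in the sixth decile. For H3K9ac both ends lay above the middle: the median difference was -0.16 in the highest decile and 0.11 in the lowest, against -0.64 in the sixth, where 25.5% of the genes were higher in B. What sets the libraries apart was not tested.

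Seen from the transcripts, the share of genes with a mark stopped climbing at 10 RPKM, while the median H3K9ac signal was higher in each class from 0.1 RPKM upward. An H3K9ac region was found on 16.2% of the 9901 genes at 0 RPKM, 40.0% of those above 0 and under 0.1, 73.5% of those from 0.1 to under 1, 86.6% from 1 to under 10, and 91.9% from 10 to under 100 RPKM. The 80 genes at 1000 RPKM or more had H3K9ac in 90.0% and H3K4me3 in 87.5%. Median H3K9ac signal was 87.0 in genes above 0 and under 0.1 RPKM, 422 at 1 to under 10, 482 at 10 to under 100, 509 at 100 to under 1000 and 619 at 1000 or more. Median H3K4me3 signal over the same classes was 83.1, 285, 355, 467 and 392, so its highest median was not in the highest class. The quartile ranges of neighbouring classes overlapped from 1 RPKM upward for both marks.

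**Figure D4:**
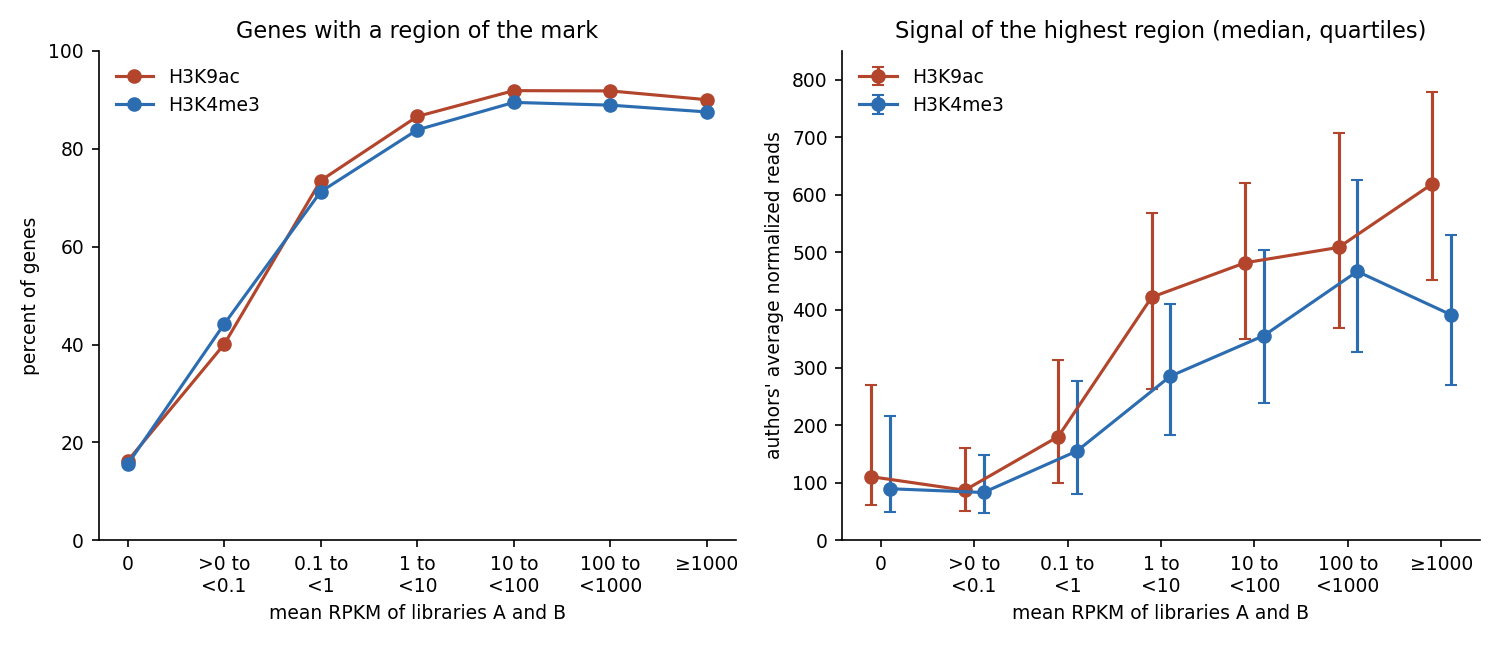
Presence and signal of H3K9ac (red) and H3K4me3 (blue) by class of mean RPKM; the left panel gives the percent of genes with a region, and the right panel the median signal of the highest region with bars from the lower to the upper quartile. Presence reaches 91.9% for H3K9ac and 89.4% for H3K4me3 at 10 to under 100 RPKM, and the median H3K4me3 signal is 467 at 100 to under 1000 RPKM and 392 above that.

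Some genes carried strong marks with hardly any transcript. Of the 4331 genes under 0.1 RPKM with an H3K9ac region, 352 (8.13%) had a signal above 445, the median of genes at 1 RPKM or more. Of the 4544 with an H3K4me3 region, 479 (10.5%) lay above the corresponding median of 311, and 193 genes were above both. Among named genes, WRKY67, of the WRKY family of transcription factors, had an H3K9ac signal of 627 and an H3K4me3 signal of 684 with 0 RPKM in both libraries. IBH1-1 had H3K9ac at 635 and H3K4me3 at 404, Bk2L8 had 591 and 636, and dbf1, an AP2-type transcription factor, had 483 and 818, each with 0 RPKM in A and in B. RPS27A (GRMZM2G047732), a ribosomal protein gene, had 579 and 547 at 0 RPKM. A second model of that name, RPS27A_b, had 19.5 RPKM in A and 15.0 in B with signals of 230 and 307. Near-identical copies can share or lose reads in counting, so the 0 of such a model is uncertain.

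On other genes under 0.1 RPKM the H3K4me3 signal was in its highest decile. ITPK1 had H3K4me3 at 773 beside H3K9ac at 473, with 0.07 RPKM in A and 0 in B. CCD7, a carotenoid cleavage dioxygenase of strigolactone synthesis, had H3K4me3 at 686 beside H3K9ac at 75.2, with 0.04 RPKM in A and 0.08 in B. The model psat1 had 690 beside 444 at 0 RPKM in both.

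The opposite case, abundant transcripts without a region, was also found. Of the 16330 genes at 1 RPKM or more, 1702 (10.42%) had no region of either mark, and 405 of them were at 10 RPKM or more. GPB1 (GRMZM5G845611), a chloroplast glyceraldehyde-3-phosphate dehydrogenase of the Calvin cycle, had 3808 RPKM in A and 8607 in B. The model bss1 (GRMZM2G168552) had 2904 RPKM in A and 7356 in B. The light-harvesting gene lhcb6 had 944 and 1534 RPKM and the photosystem I subunit gene psaH1 had 336 and 517, in A and B. All of them were in the same transcript range as genes with strong marks.

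Assignment of regions bears on such genes, because each region is listed under a single neighbouring gene. In the RefSeq gene order (assembly Zm-B73-REFERENCE-NAM-5.0, used for names and neighbours only), the model on one side of GPB1 is zma-MIR528a, which was listed with an H3K9ac signal of 312 and an H3K4me3 signal of 83.5 and with 0 RPKM. On the other side lies GRMZM2G031859, itself transcribed at a mean of 26.5 RPKM, with signals of 361 and 318. The model ppp1 (GRMZM6G300210), at 1074 RPKM in A and 208 in B with no region, shares 1 RefSeq gene with GRMZM2G090718, which had a mean of 711 RPKM and signals of 570 for each mark. Of the 1702 transcribed genes with no region, 883 matched a RefSeq gene, and 148 of these share it with a model that has a region. The same count was not made for genes with a region, so it has no background to be read against. Models beside bss1 and lhcb6 had regions of both marks, while a model beside psaH1 and another beside ppp1 had none. Whether assignment accounts for any of the class was not tested.

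Genes with a single mark held a few of the leaf's abundant transcripts. CP29, a light-harvesting protein of photosystem II, had 1642 RPKM in A and 1036 in B with 3 H3K9ac regions, the highest at 1426, and no H3K4me3 region. The sucrose transporter gene sut1 had an H3K9ac signal of only 68.3 and no H3K4me3. The models shbp1, ris2 and vignain, also with H3K9ac only, had means of 892, 761 and 304 RPKM with signals of 83.0, 705 and 80.6. So abundant H3K9ac-only genes spanned weak and strong signals.

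On the H3K4me3-only side, the model LOL3 (GRMZM2G120079) had 657 RPKM in A and 1378 in B with a signal of just 37.9. Ann5, an annexin, had 60.4 and 180 RPKM with a signal of 126. The glycine-rich protein gene grp1 had 52.1 and 90.7 RPKM with 551, and the silicon transporter gene Lsi6 had 25.4 and 23.4 RPKM with 18.3. In this class 8 genes (0.451%) reached 100 RPKM, against 27 (1.26%) with H3K9ac only, 582 (2.74%) with both marks and 48 (0.339%) with no region.

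The named genes with the strongest marks covered a wide range of transcript levels. Genes at 100 RPKM or more made up 7.62% of the highest H3K9ac decile and 8.43% of the highest H3K4me3 decile, against 0.214% and 0.130% of the lowest. The named genes of highest H3K9ac signal were bx9 at 2034, an enzyme gene of benzoxazinoid defence compounds, D8 at 1631, D14a at 1524, CYP92C6 at 1474 and DBP2 at 1438. Their transcript levels were 130 and 229 RPKM for bx9, 7.53 and 19 for D8, 47.6 and 81.5 for D14a, 34.9 and 117 for CYP92C6, and 81.8 and 95.7 for DBP2, in A and B. D8, a DELLA protein that restrains gibberellin responses, also led the named genes in H3K4me3 at 1977, followed by CYP92C6 at 1372, AGA2 at 1347, TPS9 at 1332 and MYC2a at 1329. MYC2a, a transcription factor of the jasmonate response, had 6.06 RPKM in A and 9.20 in B.

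The highest H3K9ac signal next to a protein-coding gene, 2165, belonged to GRMZM2G351716, whose transcripts stood at 0.15 RPKM in A and 0.07 in B. That ID was listed with 77 H3K9ac and 55 H3K4me3 regions, where no other protein-coding gene had more than 8 and 5. The H3K9ac regions run over chr5:5554152-6811928 (B73 RefGen_v3), and no other gene was listed with a region inside that span. The place of its highest region relative to the gene itself is therefore uncertain. The highest H3K4me3 signal next to a protein-coding gene, 24942, belonged to GRMZM2G348602, with 0 RPKM in both libraries and no H3K9ac region.

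The balance between the marks varied widely among transcribed genes. The median ratio of H3K9ac to H3K4me3 signal in genes with both marks was 1.30, a number that depends on the authors' scaling of each mark, and its rho with RPKM was 0.10. Of named genes at 1 RPKM or more, the highest ratios were those of DEF1 at 20.6, MYB167 at 18.97, HYP1 at 16.3, the ribosomal protein gene rps10 at 14.1 and cenH3, the centromeric histone H3, at 13.0. DEF1 passed 1 RPKM through library B alone, with 0.16 RPKM in A and 1.94 in B. MYB167 had 5.33 and 5.95 RPKM in A and B, with H3K9ac at 843 and H3K4me3 at 44.4. The lowest ratios were those of pcr1 at 0.15, argonaute1 at 0.20, AGA3a at 0.21, IBP1 at 0.22 and pgd3, a 6-phosphogluconate dehydrogenase, at 0.22. The highest regions of the marks lie 2779 bp apart for DEF1 and 2924 bp apart for IBP1, so these 2 ratios compare different places, while those of the other 8 genes meet. The gene pcr1 had 20.7 RPKM in A and 28.7 in B, with H3K9ac at 124 and H3K4me3 at 823.

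Genes of the C4 cycle were among the most abundant transcripts, and their median mark signals were close to those of all marked genes. All 13 were at 1 RPKM or more, 9 of them at 100 or more, and all had an H3K9ac region, while 12 had H3K4me3. The median level was 768 RPKM in A and 263 in B, against 0.28 in each library for all protein-coding genes. The median H3K9ac signal was 314 and the median H3K4me3 signal 227, against 332 and 237 over all protein-coding genes with the region. These C4 medians lay below those of every transcript class from 1 RPKM upward. The classes are not matched to the list in abundance, because only 9 of the 13 C4 genes were at 100 RPKM or more. Protein-coding genes at 1 to under 10 RPKM had medians of 422 and 285, and those at 10 to under 100 RPKM had 482 and 355. Protein-coding genes at 100 to under 1000 RPKM had medians of 509 and 467, and those at 1000 RPKM or more had 619 and 392. No gene list was chosen independently of earlier results of these data, so the counts are descriptions. The background for the counts of every list is the share over all protein-coding genes: 41.5% at 1 RPKM or more, 59.4% with H3K9ac and 58.5% with H3K4me3.

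PPDK (GRMZM2G306345), which regenerates the carbon acceptor in the mesophyll, had 9856 RPKM in A and 10498 in B, with H3K9ac at 665, above the median of 332, and H3K4me3 at 223, below the median of 237. It had 5 H3K9ac regions and 3 H3K4me3 regions, and its strongest H3K9ac region was chr6:146189387-146189997 (B73 RefGen_v3). PPDK2 (GRMZM2G097457) had 378 RPKM in A and 257 in B, with signals of 267 and 188. PEPC had H3K9ac at 314 and H3K4me3 at 123, and its kinase PPCK1 had 12.3 RPKM in A and 41.6 in B with H3K9ac at 274 and H3K4me3 at 616, the highest H3K4me3 of the list. The enzyme with far more transcript thus had the lower H3K4me3.

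CA, carbonic anhydrase, had 3436 RPKM in A and 4009 in B with signals of 271 and 231, and NADP-MDH, which reduces oxaloacetate to malate, had 1091 and 586 RPKM with 228 and 388. In the bundle sheath, NADP-ME had H3K9ac at 457 and H3K4me3 at 324. PEPCK (GRMZM2G001696), another decarboxylase, had 2411 RPKM in A and 4903 in B with H3K9ac at 611 and H3K4me3 at only 98.7. Its ratio of 6.19 was the highest of the C4 list.

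The transporters on the C4 list ran from high to barely transcribed. DCT2 had 768 RPKM in A and 263 in B with signals of 704 and 335, DCT1 had 87.5 and 50.0 RPKM with 445 and 438, and OMT1 had 222 and 161 RPKM with H3K9ac at 350 and no H3K4me3 region. The phosphoenolpyruvate transporters PPT1, at 1.33 RPKM in A and 1.11 in B, and PPT2, at 4.42 and 0.86, had the lowest H3K9ac of the list, 160 and 180. Within the C4 list, then, the 2 weakest H3K9ac signals stood on the 2 least abundant transcripts. Above them the order did not hold. The next weakest signal, 228, was that of NADP-MDH at 1091 RPKM in A and 586 in B. PPCK1 had 274 at only 12.3 RPKM in A and 41.6 in B.

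The highest regions of the marks usually coincided. In 95.3% of the genes with both marks they shared at least 1 base, and so they did in 10 of the 12 C4 genes with both. The exceptions were PEPC, with its highest H3K9ac region at chr9:62303432-62304170 and its H3K4me3 region at chr9:62305883-62307051, and PEPCK, with H3K9ac at chr1:35749487-35750157 and H3K4me3 at chr1:35745644-35747264 (B73 RefGen_v3). The gaps were 1713 and 2223 bp. Over all genes with both marks, the 993 whose highest regions did not meet had a median of 0.43 RPKM in A and 0.51 in B, against 2.99 in A and 2.09 in B for the 20241 whose regions met.

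Several H3K9ac regions on a gene went with more transcript. The median level was 2.18 RPKM in A and 1.50 in B for the 17766 genes with 1 H3K9ac region, 3.75 and 3.46 for the 985 with 3, and 7.33 and 7.46 for the 342 with 4 or more. The median signal of the highest region in these groups was 325, 387 and 420. For H3K4me3 the 20798 genes with 1 region had a median of 2.31 RPKM in A and 1.63 in B, and the 1994 with 2 had 1.69 and 1.95, so the libraries lay on opposite sides. Of the C4 genes, 8 of 13 had 2 or more H3K9ac regions, against 5603 of the 23369 protein-coding genes with the mark. Among genes with the mark at 100 to under 1000 RPKM the share was 42.6%, and at 1000 RPKM or more it was 33.3%. By region width, the median level was 1.52 RPKM in the widest decile of H3K9ac regions, against 0.34 in the narrowest. For H3K4me3 it was 1.47 RPKM in the widest decile, against 0.185. Both ends lay below the median mean RPKM of genes with 1 region, 2.035 for H3K9ac and 2.185 for H3K4me3. Across all genes with a region, rho between width and mean RPKM was only 0.07 for H3K9ac and -0.0036 for H3K4me3.

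The Calvin cycle and photosystem lists had high transcripts and mixed marks. Of 7 Calvin cycle genes, all at 1 RPKM or more, 5 had both marks and 2, GPB1 and RCA3, had none. RCA3, the least abundant of them, had 7.61 RPKM in A and 15.2 in B, and its relative RCA1, a Rubisco activase, had 356 and 192 RPKM with signals of 479 and 771. RBCS2, a small subunit of Rubisco, had 4164 RPKM in A and 6050 in B with H3K9ac at only 228 and H3K4me3 at 215, and RBCS1 had 2669 and 3556 RPKM with 293 and 263. GAPA, a chloroplast glyceraldehyde-3-phosphate dehydrogenase subunit with less transcript, 418 and 944 RPKM, had 791 and 862.

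Of 13 photosystem and light-harvesting genes, 12 were at 1 RPKM or more, 10 had H3K9ac and 9 had H3K4me3. The gene lhcb7 stood at 5634 RPKM in A and 8941 in B with signals of 452 and 274, and psaN, of photosystem I, had 3499 and 4622 RPKM with 746 and 229. The photoprotective gene psbS1 had 2795 and 3704 RPKM with 489 and 320. PSBQ1, a photosystem II subunit model, was listed at 0 RPKM with no region.

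All pigment synthesis genes carried both marks, with a higher median H3K4me3 signal than the C4 genes. Of the 12, 11 were at 1 RPKM or more, with a median of 46.0 RPKM in A and 32.2 in B. Their median H3K4me3 signal was 473, against 237 over all genes with the mark. The gene oy1, of magnesium chelatase, had 226 RPKM in A and 243 in B with H3K9ac at 366 and H3K4me3 at 886, and psy1, phytoene synthase, had 242 and 201 RPKM with 799 and 428. A second model of phytoene desaturase, pds1_b, had 0.08 and 0.11 RPKM with 74.2 and 208.

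Most genes of the ribosomal and histone modifier lists were transcribed and marked. Of 37 cytosolic ribosomal protein genes, 35 were at 1 RPKM or more, 35 had H3K9ac and 33 had H3K4me3, at median signals of 230 and 257 and a median of 15.4 RPKM in A and 10.8 in B. Only rpl19, with 602 RPKM in A and 295 in B and signals of 519 and 374, passed a mean of 100 RPKM, and rpp2b followed with 143 and 43.2 RPKM. Of 24 histone modifier genes, 20 were at 1 RPKM or more and 22 had each mark, with a median H3K9ac of 464 at only 5.01 RPKM in A and 1.28 in B. The deacetylase genes hda101, with 36.0 and 21.3 RPKM, and Hda1, with 18.6 and 12.1, led this list, and fie1, a Polycomb gene, had 0.01 and 0 RPKM and no region.

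Of 23 sucrose and starch genes, 13 (56.5%) were at 1 RPKM or more, 21 (91.3%) had H3K9ac and 19 (82.6%) had H3K4me3. Over all protein-coding genes the shares were 41.5%, 59.4% and 58.5%. The gene sps1, sucrose phosphate synthase, had 307 RPKM in A and 391 in B with signals of 260 and 413. The starch gene bt1 was at 0 RPKM with signals of 24.5 and 38.2. Of 8 clock and photoreceptor genes, 7 were at 1 RPKM or more, all had H3K9ac and 7 had H3K4me3. The GIGANTEA model gigz1a had 40.5 and 24.4 RPKM with H3K9ac at 69.6 and no H3K4me3, the phytochrome chromophore gene elm1 had 20.0 and 7.77 RPKM with 451 and 239, and PhyB2 had 0.46 and 0.22 RPKM beside an H3K4me3 signal of 661.

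Growth-regulating factor genes were mostly marked at low transcript levels. Of 16, only 3 were at 1 RPKM or more, yet 15 had H3K9ac and all 16 had H3K4me3, at median signals of 223 and 285. GRF4, at 9.17 RPKM in A and 6.44 in B, had 511 and 396, and GRF10, at 6.43 and 4.83, had 497 and 393. GRF11 had only 0.39 RPKM in A and 1.08 in B with H3K9ac at 696, and GRF7 was at 0 RPKM with H3K4me3 at 138 and no H3K9ac. The median H3K4me3 signal of the family lay above the 237 of all genes with the mark, and its median H3K9ac signal below the 332 of all genes with that mark.

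Cell division genes were mostly marked too, but weakly. Of 22, 7 were at 1 RPKM or more, 19 had H3K9ac and 21 had H3K4me3, with median signals of 121 and 88.1. MCM6 and MCM7, helicase subunits of DNA replication, had H3K4me3 at 19.8 and 22.3 and no H3K9ac region, and cyclin8 had 15.5 and 31.9 at 0.01 RPKM in A and 0 in B. Marks were strong on cyclin4, at 33.7 RPKM in A and 11.6 in B with 561 and 307, and moderate on RBR1, a retinoblastoma gene, at 14.9 and 3.31 RPKM with 224 and 83.4. A listed region may have been called in either zone of the leaf, so a weak signal at a listed region need not be a region of its own in the maturing zone.

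Of 8 core histone genes, 5 were at 1 RPKM or more and 6 had both marks; histone2b1 had 13.6 RPKM in A and 18.3 in B with signals of 364 and 281, his2b5 had 1.15 and 2.91 RPKM with 67.0 and 140, and his2b2 had 0 RPKM and no region. Of 24 KNOX and meristem genes, 4 (16.7%) were at 1 RPKM or more, 9 (37.5%) had H3K9ac, 12 (50%) had H3K4me3 and 11 had neither. Over all protein-coding genes the shares were 41.5%, 59.4% and 58.5%, and 36.0% had no region. The receptor gene td1 had 11.2 RPKM in A and 27.1 in B with 101 and 288, knox6 had 19.1 and 8.54 with 523 and 501, and wox4 had 0 RPKM and no region.

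Of 31 cell wall genes, 16 (51.6%) were at 1 RPKM or more, 20 (64.5%) had H3K9ac and 19 (61.3%) had H3K4me3, against 41.5%, 59.4% and 58.5% of all protein-coding genes. The cellulose synthase genes CesA7, at 50.3 RPKM in A and 17.1 in B, and CesA6, at 36.5 and 18.8, had H3K9ac at 412 and 1094 and H3K4me3 at 480 and 671, and the expansin gene EXPB11 had 0 RPKM and no region. Zein genes, whose proteins are stored in the seed, gave the low end: of 26, none was at 1 RPKM or more, the highest being gz50 at a mean of 0.02 RPKM and dzs18 at 0.01, and 25, gz27 among them, had no region of either mark. A count of 0 in a library allows up to 3 reads, for counting error only.

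**Figure D5:**
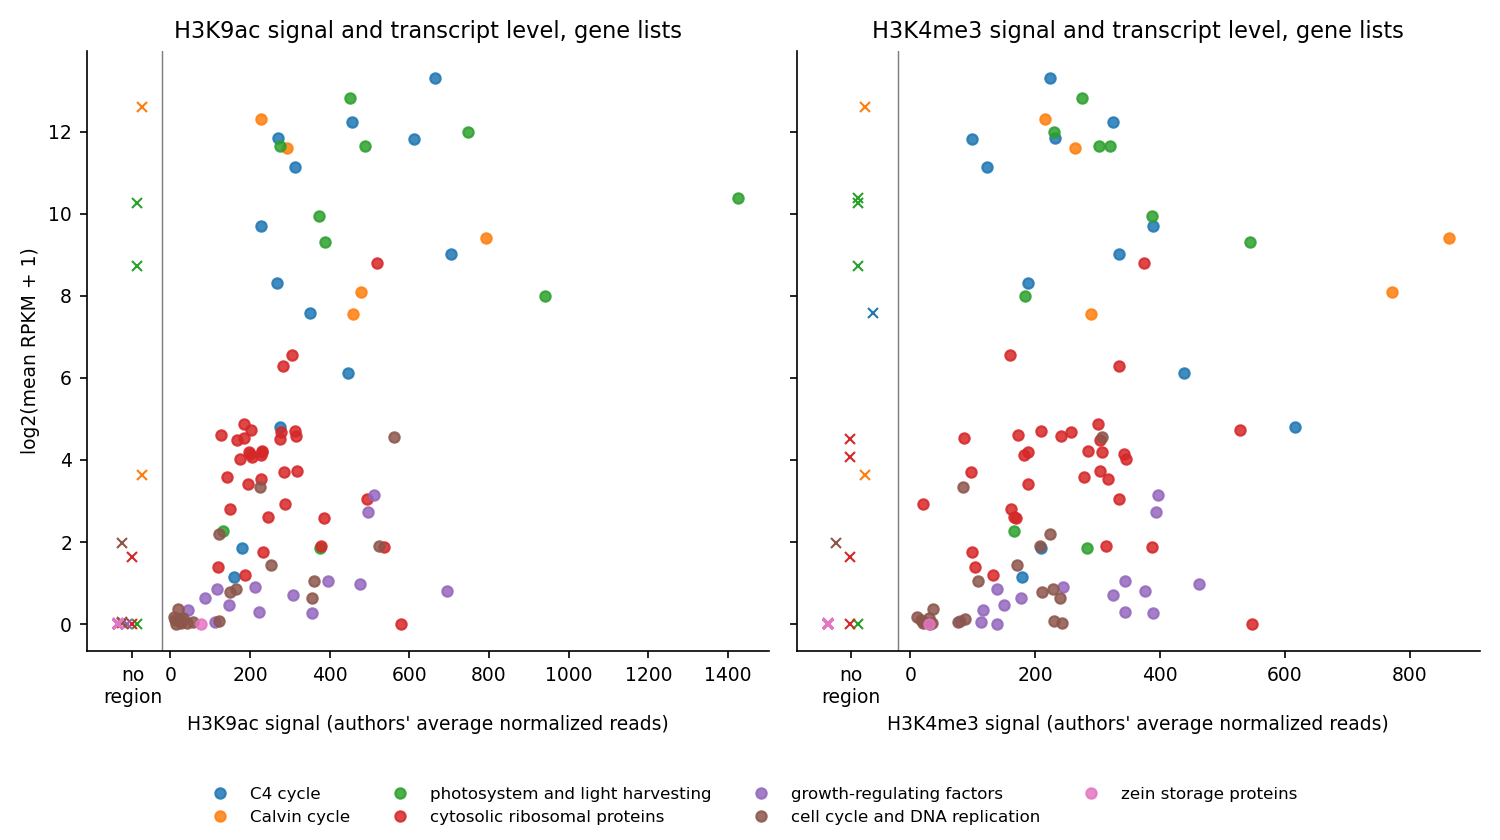
Members of 7 gene lists by H3K9ac signal (left) or H3K4me3 signal (right) and transcript level, log2(mean RPKM + 1); each dot is a gene, and crosses left of the grey line are genes with no region of that mark. Most C4 cycle and photosystem genes lie high, at H3K9ac signals mostly between 160 and 746. Growth-regulating factors lie low at H3K9ac signals from 28.0 to 696, and 25 of 26 zein genes are crosses at the bottom left.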

How the data were processed

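Per the file headers, the authors deposited whole-number read counts over exons and RPKM values for RNA libraries A and B of the maturing zone, and per ChIP region an average normalized read signal and the next gene. Tools per the submitters' processing notes were DiffBind 1.10.0, edgeR, Trimmomatic 0.32 and CASAVA 1.8.2, and the build was B73 RefGen_v3. Not given in the sources used here were the aligner, the peak caller, the number of ChIP replicates, the scaling of their averages and the strandedness, so antisense and near-identical genes can share reads. The 6 columns for the leaf base were not used.

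The deposited RPKM values of A and B were averaged per gene and set against the highest region signal of each mark, with Python 3.11.15, pandas 2.3.3 and scipy 1.17.1. Correlations are Spearman's, and R2 used log2(RPKM + 1). No test was run, because genes are not replicates and the marks have 1 average each. The functions were tested on simulated data. The deposited counts gave the library totals and, with edgeR 4.0.16, TMM factors for an alternative. Libraries A and B carry the same sample label, and nothing pairs them with the ChIP pools. Alternatives were each RNA library alone, another pseudocount, transcribed genes only, summed signal, signal per kb, features of every type, other RPKM thresholds and stronger regions only.

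Genes named were the C4 list, the 2 most and 1 least abundant members of the other 13 lists, the cell type markers and extremes of level, signal and ratio among named models; RPS27A_b, GAPA, GRF11, zma-MIR528a, GRMZM2G031859, GRMZM2G090718, GRMZM2G348602 and GRMZM2G351716 were added after their values were seen. Names come from RefSeq, which matched 18818 of the 39313 IDs (47.9%); PEPCK, CA and PRK follow published assignments of these models. The members and lists were chosen with earlier results of these data known.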

Additional observations from a re-analysis of the deposited data

Results flagged for a closer look

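Signal outside the protein-coding genes was picked out because no comparison above uses it. At a mean of 1 RPKM or more, 1483 low_confidence and 312 transposable_element features were found, 3.66% and 1.04% of their types, against 41.5% of protein-coding genes. Regions next to low_confidence features numbered 9332 for H3K9ac and 5428 for H3K4me3. The highest H3K4me3 signal of any region was 113461.6, next to a transposable_element feature at 0 RPKM, and it lay at chr2:221020378-221021042 (B73 RefGen_v3). On the plastid genome, which has no histones, 4 H3K9ac regions were listed next to 2 protein_coding models, with signals of 84.7 to 213. These regions were few and were kept in the comparisons.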

How the results depend on the processing

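Correlations over all genes with a region and over those at 1 RPKM or more kept their sign under the alternatives run, while that of H3K4me3 at 100 RPKM or more, in genes with both marks, was -0.12 with A and 0.06 with B. Leaving out 1 RNA library gave rho of 0.552 to 0.585 for H3K9ac and 0.517 to 0.535 for H3K4me3, and R2 for both marks of 0.234 to 0.274. The share at 1 RPKM or more became 62.1% to 64.6% (both marks), 26.2% to 30.1% (H3K9ac only), 9.53% to 11.3% (H3K4me3 only), 9.84% to 12.4% (no region), 86.4% to 88.3% (highest H3K9ac decile), 85.04% to 86.7% (highest H3K4me3 decile) and 14.4% to 14.6% (lowest H3K4me3 decile).

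With only genes at 1 RPKM or more, rho was 0.234 for H3K9ac, 0.256 for H3K4me3 and 0.426 between the marks, and R2 was 0.0674. A pseudocount of 0.1 gave an R2 of 0.339. Signal per kb gave rho of 0.544 for H3K4me3 and 0.605 between the marks, and 90.2% in the highest H3K4me3 decile. With features of every type, rho for H3K4me3 was 0.504, and the shares were 53.9%, 11.1%, 8.72% and 3.37% for both marks, H3K9ac only, H3K4me3 only and no region. In that class order they were 72.3%, 35.7%, 14.4% and 14.4% at a threshold of 0.5 RPKM, and 36.8%, 13.8%, 4.06% and 5.34% at 5 RPKM. With regions above the lowest decile of signal they were 69.5% for both marks and 9.92% for H3K4me3 only. H3K4me3-only genes and genes with no region therefore changed places between the libraries. TMM scaling moved no value past the SD of the values from A and B, and summed signal moved only Pearson's r for H3K4me3 past it. No paired analysis was possible because the result comes from no test. The ChIP averages carry no depth, so weak signals have no stated precision.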
